A study of Mus musculus with 6 samples.

Results

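The 10 genes described here encode the main machinery by which a cell shows peptides on major histocompatibility complex (MHC) class I: the heavy chains H2-K1 and H2-D1, their light chain B2m, the peptide transporter subunits Tap1 and Tap2, the loading factor Tapbp, the immunoproteasome subunits Psmb8, Psmb9 and Psmb10, and the transactivator Nlrc5. They were taken by symbol, each matched 1 row of the 20097 genes listed for every library, and all 10 passed the filter on low values that left 15410 genes for testing. RNA was measured by poly-A sequencing in mouse bone marrow cells selected for c-Kit, the receptor that marks blood stem and progenitor cells, in 3 libraries of genotype WT and 3 labelled Runx1 KO, a knockout of a transcription factor of blood formation. No treatment is named for either group. The strain, age and sex of the mice, the promoter or agent used to disrupt Runx1, and whether libraries came from separate mice are not given in the sources used here, so p-values measure only the spread between these libraries, which may be technical.

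In nearly every nucleated cell, proteasomes cut cytosolic proteins into peptides, TAP carries the peptides into the endoplasmic reticulum, and tapasin holds an empty class I heavy chain with beta-2-microglobulin beside TAP until a well-fitting peptide is bound. The complex then travels to the surface, where CD8 T cells read the peptide and natural killer cells sense the class I molecule itself. Interferons raise the genes of this pathway, and NLRC5 acts with the RFX, CREB/ATF and NF-Y factors on a shared promoter module, beside sites for NF-kappaB and interferon regulatory factors.

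The libraries held between 23297526 and 26793380 recovered reads, where a recovered read is the step that 1 read takes in the deposited normalised read counts. Runx1 went against its label. It measured 3031, 2799 and 3497 normalised reads in WT and 6648, 6720 and 5830 in the libraries labelled Runx1 KO (log2 change 1.04, SE 0.10, limma adjusted p = 0.00163), so each direction below refers to the label, and a count over the whole gene does not show whether a part of it was deleted. Kit, the selected marker, was at 7979 to 8471 normalised reads in WT and was higher in the libraries labelled Runx1 KO (log2 change 0.60, SE 0.07, limma adjusted p = 0.00346). Marker genes of mature blood cells differed between the groups. Of 8 neutrophil genes 5 were lower in the libraries labelled Runx1 KO, and their summed normalised count ranged from 27692 to 81387 against 154100 to 245066 in WT; of 8 B-lymphoid genes 6 were lower, with sums from 954 to 2594 against 6614 to 26929. Erythroid genes (5 of 6), basophil and mast cell genes (4 of 5) and some monocyte and macrophage genes (3 of 8) were lower too, where 11.3% of all tested genes were lower. Of 9 T and NK genes only Nkg7 and Gzmb were lower (2 of 9), and Cd3e, Cd3g, Cd3d and Trac overlapped between the groups. Dendritic cell genes passed in 0 of 7, although their sums were lower and fully apart (863 to 1815 against 2077 to 2383 in WT). Of 4 megakaryocyte genes 2 were higher, Itga2b and Gp9. Ppbp (log2 change 1.42) and Pf4 (-0.89) did not pass (limma adjusted p = 0.0685 and 0.0782). The megakaryocyte sums overlapped between the groups (2573 to 4363 against 2167 to 2720 in WT). Of 6 stem and progenitor genes 4 were higher, with sums from 25702 to 29747 against 17823 to 20347. For both of these lists, the share of all tested genes called higher was 10.6%. None of these markers was at 0 in all 6 libraries. WT replicate 1 stood apart by the highest B-lymphoid and neutrophil sums (26929 and 245066), and the library labelled Runx1 KO replicate 1 held more neutrophil signal (81387) than the other two of its label (31704 and 27692). In bulk RNA, fewer cells of a type and less RNA per cell cannot be told apart, and the part that these cells have in the results below was not tested. The count of members called without both libraries numbered 1 is given with the test of the members.

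The promoters of the classical heavy chains are shown first because H2-K1 and H2-D1 share much of their promoter sequence, while only the former passed the test described below. RefSeq windows on GRCm38.p6, reaching 250 bases upstream of an annotated start, were used for 8 of the 10 members, and not for Tap2 and Nlrc5. For a gene with several annotated starts, the one whose window reaches furthest into the gene was used. For H2-K1 this was the second of its 2 annotated starts, which lies next to the motifs. The stretches below are printed 5′ to 3′ on the strand given, and capitals mark a kappaB motif (the first capitals of each heavy chain stretch), AANNGAAA (a core bound by interferon regulatory factors), TGACG (a core bound by CREB/ATF, as in the X2 box) and CCAAT (the Y box bound by NF-Y), on either strand, with no overlap among the marked matches. H2-K1 lies at chr17:34000334-34000462 on the minus strand, H2-D1 at chr17:35262919-35263051 on the plus strand, and the nonclassical heavy chain genes H2-Q6 and H2-Q7 at chr17:35424673-35424805 and chr17:35439018-35439149 on the plus strand.
H2-K1: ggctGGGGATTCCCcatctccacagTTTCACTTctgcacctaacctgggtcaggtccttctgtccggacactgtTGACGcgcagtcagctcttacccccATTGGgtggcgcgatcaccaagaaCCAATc
H2-D1: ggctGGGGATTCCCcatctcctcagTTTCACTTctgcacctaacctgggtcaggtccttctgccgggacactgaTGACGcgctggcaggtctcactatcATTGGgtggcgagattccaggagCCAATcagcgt
H2-Q6: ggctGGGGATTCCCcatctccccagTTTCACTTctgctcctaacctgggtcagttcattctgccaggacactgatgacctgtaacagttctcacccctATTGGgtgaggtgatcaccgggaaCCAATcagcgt
H2-Q7: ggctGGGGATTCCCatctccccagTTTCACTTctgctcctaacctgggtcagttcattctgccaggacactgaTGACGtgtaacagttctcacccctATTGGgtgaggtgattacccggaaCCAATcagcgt

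The stretches of H2-K1 and H2-D1 were identical at 113 of 134 aligned positions (84.3%), and those of H2-Q6 and H2-Q7 at 129 of 133 (97.0%). The 4 stretches were cut from just before the kappaB motif to just after the last CCAAT, so each holds both by the way it was cut. All 4 also held the interferon regulatory factor core, and H2-Q6 was without TGACG. The light chain gene B2m (chr2:122147537-122147656, plus strand) held AANNGAAA, TGACG and CCAAT. Tap1 and Psmb9 point away from each other with 225 bases between their annotated starts (chr17:34187331-34187555, printed on the plus strand, on which Tap1 is read), so that the same bases lie upstream of both, with 1 CCAAT and 1 TGACG.
B2m: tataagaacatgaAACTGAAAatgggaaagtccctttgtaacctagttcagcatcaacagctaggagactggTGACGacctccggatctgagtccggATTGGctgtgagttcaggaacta
Tap1-Psmb9: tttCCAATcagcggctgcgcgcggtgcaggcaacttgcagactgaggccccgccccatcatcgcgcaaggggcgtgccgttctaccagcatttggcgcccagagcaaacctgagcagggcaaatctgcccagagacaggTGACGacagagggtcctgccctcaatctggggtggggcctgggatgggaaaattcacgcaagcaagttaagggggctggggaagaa

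Counted over both strands in the 250 bases upstream of the start, the kappaB motif was found in 2 of the 8 members with a window, H2-K1 and H2-D1, and in 28 of 32851 RefSeq windows (0.0852%). AANNGAAA was found in 3 of 8 (H2-K1, H2-D1 and B2m; 21.3% of all windows), TGACG in 5 of 8 (the same 3 with Tap1 and Psmb9; 17.8%), and CCAAT in 6 of 8, absent from the windows of Psmb8 and Psmb10 (33.8%). The palindrome TTCNNNGAA, a core of interferon gamma-activated sites, was found for Psmb8 (7.02% of windows), and TGTGGT, a core bound by RUNX factors, for Tapbp and Psmb10 (14.0%). The windows of Tap1 and Psmb9 overlap, so their matches are the same letters. The kappaB search used a single fixed string, and the start used for H2-K1 lies next to the motifs. The shares beside all windows are therefore descriptive, and no enrichment was tested. A match describes the sequence and is not evidence of binding.

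Members were compared between the groups with limma on log2(normalised read count + 1), with p-values adjusted by Benjamini-Hochberg over the 15410 genes tested and a threshold of 0.05. Nlrc5, Tap1, H2-K1 and Psmb9 were higher in the libraries labelled Runx1 KO and no member was lower. This is 4 of 10 members called, where 21.9% of all tested genes were called in either direction, 10.6% higher and 11.3% lower. All 10 log2 changes were above 0, with a median of 0.29 against -0.0042 over all tested genes. In 6 of the 10 members every library labelled Runx1 KO lay above every WT library, as it did for 21.4% of tested genes. Without both libraries numbered 1, 3 members were called, since the adjusted p of Psmb9 became 0.0652. Tap1 and H2-K1 kept their calls there (log2 change 0.63 and 0.36, limma adjusted p = 0.0197 and 0.0399), as did Nlrc5. Without the library labelled Runx1 KO replicate 2 only Nlrc5 and Tap1 were called, a count of 2, and scaling by library totals called 7.

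**Figure D1:**
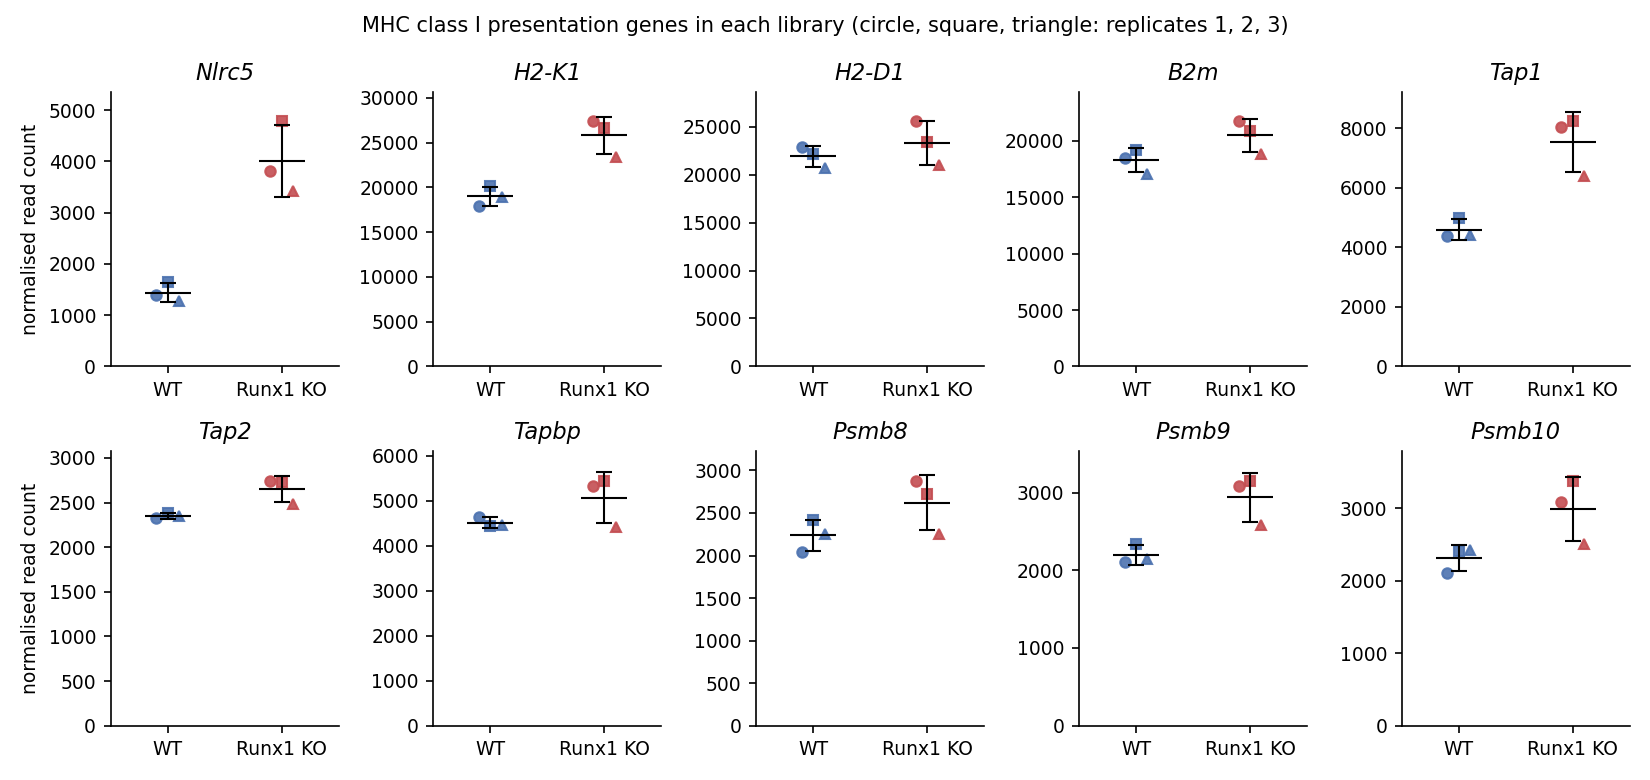
Normalised read counts (vertical axis, starting at 0) of the 10 members in each library, by genotype label on the horizontal axis; points are libraries, with circles, squares and triangles for replicates 1, 2 and 3, and bars are the mean ± SD (n = 3 per group). The groups are fully apart for Nlrc5, H2-K1, Tap1, Tap2, Psmb9 and Psmb10 and overlap for H2-D1, B2m, Tapbp and Psmb8, and the triangle is the lowest library labelled Runx1 KO in every panel.

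Nlrc5 (ENSMUSG00000074151; GRCm38 chr8:94434356-94527272, plus strand), the transactivator of the class I genes, changed most. It measured 1400, 1638 and 1285 normalised reads in WT and 3807, 4780 and 3417 in the libraries labelled Runx1 KO, so that the lowest of the latter was more than 2 times the highest WT value. The means were 1441 ± 180 (SD, n = 3) and 4001 ± 702 (SD, n = 3), a ratio of 2.78. The log2 change was 1.47 (SE 0.14, 95% interval 1.13 to 1.80, limma adjusted p = 0.00179), and it stayed between 1.33 and 1.57 and below the threshold when any 1 library was left out. No 50-base stretch of its principal transcript was found in another gene's transcripts, but a noncoding gene, 9330175E14Rik, overlaps it on the opposite strand, and whether the counting used strand is not given in the sources used here.

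Among the heavy chains, H2-K1 rose and H2-D1 did not pass. H2-K1 (ENSMUSG00000061232; chr17:33996017-34000347, minus strand) presents peptide to CD8 T cells and measured 17927, 20149 and 18896 normalised reads in WT against 27382, 26650 and 23406 in the libraries labelled Runx1 KO. All 3 of the latter were above all WT libraries. The means were 18990 ± 1114 and 25813 ± 2116 (SD, n = 3 each), a ratio of 1.36 and a log2 change of 0.44 (SE 0.08, limma adjusted p = 0.0115). Leaving out the library labelled Runx1 KO replicate 2 ended that call (adjusted p = 0.0559). H2-D1 (ENSMUSG00000073411; chr17:35262730-35267499, plus strand), the other classical heavy chain, measured 22846, 22187 and 20713 in WT and 25549, 23412 and 20983 in the libraries labelled Runx1 KO. Its groups overlapped, with a log2 change of 0.09 (SE 0.09, 95% interval -0.12 to 0.29, limma adjusted p = 0.50).

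Within a library, the ratio of H2-K1 to H2-D1 per kilobase of principal transcript does not depend on the scaling between libraries. It was 1.02, 1.18 and 1.18 in WT and 1.39, 1.48 and 1.45 in the libraries labelled Runx1 KO. The ratio was thus higher in every library labelled Runx1 KO, 1.28 times the WT mean. The printed promoter stretches of both genes carry the same 4 marked motifs and are identical at 113 of 134 aligned positions. The part of promoter sequence in this ratio was not tested. With 3 libraries against 3, an exact two-sided permutation test cannot go below p = 0.1, so no test is given for this or the other ratios. Of the 50-base stretches of the principal transcripts, 8.79% in H2-K1 and 14.3% in H2-D1 were also found in another gene, mostly H2-D1 and H2-Q1 respectively, so a part of the reads may have been split or dropped in the authors' counting. The MHC haplotype of the mice is not given in the sources used here. Counts of H2-K1, H2-D1 and the H2-Q and H2-T genes depend on how well reads match the reference haplotype, which limits their levels and ratios and was not tested.

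B2m (ENSMUSG00000060802; chr2:122147686-122153083, plus strand), the light chain that every classical class I molecule needs, measured 18526, 19183 and 17100 normalised reads in WT and 21738, 20851 and 18882 in the libraries labelled Runx1 KO. The lowest of the latter lay below the highest WT library. The log2 change was 0.16 (SE 0.08, 95% interval -0.01 to 0.34, limma adjusted p = 0.161). Per kilobase, H2-K1 relative to B2m was 0.514, 0.558 and 0.587 in WT and 0.669, 0.679 and 0.658 in the libraries labelled Runx1 KO, with no overlap. H2-D1 relative to B2m was 0.505, 0.473 and 0.496 against 0.481, 0.459 and 0.455, which overlapped. Relative to the light chain, H2-K1 was thus higher in all 3 libraries labelled Runx1 KO, and H2-D1 was not.

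The peptide transporter is a heterodimer, and the RNA of 1 of its 2 subunits passed the test. Tap1 (ENSMUSG00000037321; chr17:34187553-34197225, plus strand) measured 4381, 4989 and 4402 normalised reads in WT and 8031, 8224 and 6390 in the libraries labelled Runx1 KO. The groups were fully apart. The means were 4590 ± 345 and 7548 ± 1008 (SD, n = 3 each), a ratio of 1.64 and a log2 change of 0.71 (SE 0.11, limma adjusted p = 0.00663), and the call held without any 1 library (highest adjusted p 0.0315). Tap2 (ENSMUSG00000024339; chr17:34203527-34216321, plus strand) measured 2325, 2383 and 2344 in WT and 2746, 2731 and 2485 in the libraries labelled Runx1 KO. These groups were apart as well, by a small margin, and the log2 change of 0.17 (SE 0.06, 95% interval 0.03 to 0.32) missed the threshold (limma adjusted p = 0.082). Per kilobase, Tap1 over Tap2 was 2.20, 2.44 and 2.19 in WT and 3.41, 3.51 and 3.00 in the libraries labelled Runx1 KO, higher in all 3 and 1.45 times the WT mean. Tapbp (ENSMUSG00000024308; chr17:33915899-33929292, plus strand), which encodes tapasin, the bridge between TAP and the empty heavy chain, measured 4646, 4427 and 4470 against 5334, 5445 and 4415. The library labelled Runx1 KO replicate 3 was the lowest of all 6, and the log2 change was 0.16 (SE 0.09, 95% interval -0.05 to 0.37, limma adjusted p = 0.226).

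The immunoproteasome subunits replace the 3 catalytic subunits of the constitutive proteasome and change which peptides are cut. Psmb9 (ENSMUSG00000096727; chr17:34181987-34187764, minus strand), which replaces Psmb6, measured 2104, 2343 and 2149 normalised reads in WT and 3085, 3155 and 2579 in the libraries labelled Runx1 KO, with no overlap. Its log2 change was 0.41 (SE 0.09, limma adjusted p = 0.0211), and the call was lost without WT replicate 1 (adjusted p = 0.0546), without WT replicate 3 (0.0628) or without the library labelled Runx1 KO replicate 2 (0.0852). Psmb10 (ENSMUSG00000031897; chr8:105935735-105938444, minus strand), which replaces Psmb7, measured 2103, 2405 and 2416 against 3084, 3379 and 2499. The groups were apart only by the gap between 2416 and 2499, and the log2 change of 0.36 (SE 0.12, 95% interval 0.08 to 0.64) missed the threshold (limma adjusted p = 0.0681). It passed without the library labelled Runx1 KO replicate 3 (adjusted p = 0.0281). Psmb8 (ENSMUSG00000024338; chr17:34197721-34201454, plus strand), which replaces Psmb5, measured 2047, 2412 and 2252 against 2880, 2721 and 2257. Its groups overlapped, with a log2 change of 0.22 (SE 0.11, 95% interval -0.03 to 0.48, limma adjusted p = 0.175).

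The constitutive counterparts lay on the other side. Psmb6 measured 3501, 3749 and 3516 normalised reads in WT and 3210, 3129 and 3052 in the libraries labelled Runx1 KO (log2 change -0.20, SE 0.06, limma adjusted p = 0.045), and Psmb7 measured 1687, 1924 and 1682 against 1474, 1472 and 1431 (log2 change -0.27, SE 0.07, limma adjusted p = 0.0373). Both passed narrowly: the call of Psmb6 was lost without any 1 library (adjusted p = 0.0524 to 0.149) and that of Psmb7 without any but WT replicate 1 (0.058 to 0.119), and scaling by library totals ended both (adjusted p = 0.188 and 0.0979). That of Psmb6 ended in other settings too, among them the replicate block (limma adjusted p = 0.0536). Psmb5 measured 1315, 1576 and 1528 against 1263, 1232 and 1262 (log2 change -0.23, SE 0.08, 95% interval -0.42 to -0.04, limma adjusted p = 0.0863). Of the 50-base stretches of its principal transcript 57.1% were also found in other genes, mostly Gm3375. In all 3 constitutive genes every library labelled Runx1 KO lay below every WT library, as in 21.9% of tested genes.

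Taken within each library, all 3 immunoproteasome subunits stood higher relative to their constitutive counterparts in the libraries labelled Runx1 KO. Psmb8 over Psmb5, per kilobase, was 0.860, 0.845 and 0.814 in WT and 1.26, 1.22 and 0.987 in the libraries labelled Runx1 KO. Psmb9 over Psmb6 was 0.355, 0.369 and 0.361 against 0.567, 0.595 and 0.499. Psmb10 over Psmb7 was 1.10, 1.11 and 1.27 against 1.85, 2.03 and 1.55. None of the 3 ratios overlapped between the groups, and their means were 1.38, 1.53 and 1.56 times the WT means. A ratio within a library shows unequal change of its 2 genes and not which of them moved.

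**Figure D2:**
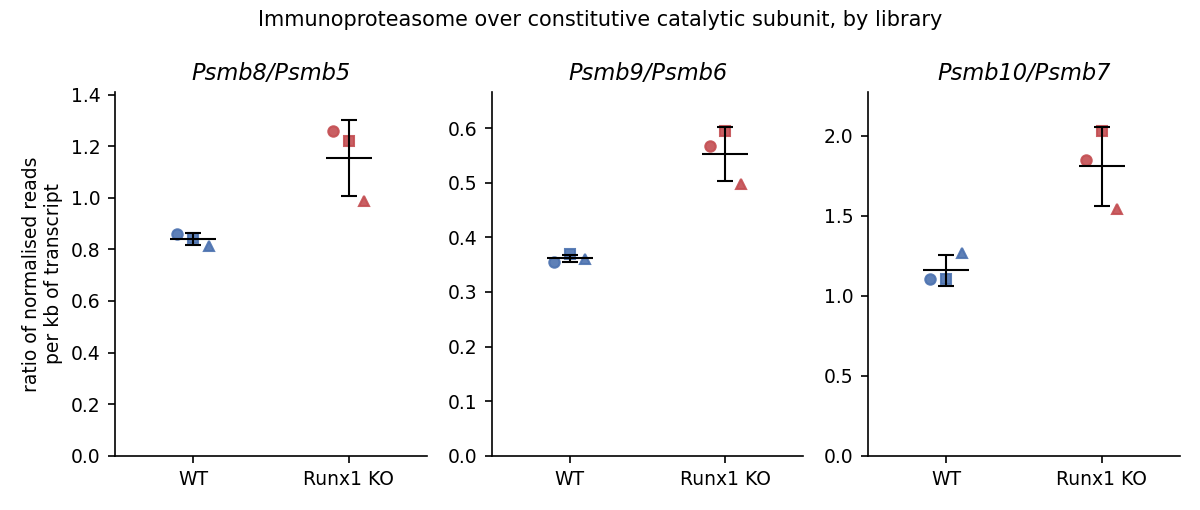
Ratio of each immunoproteasome subunit to the constitutive subunit it replaces, in normalised reads per kilobase of principal transcript (vertical axis, starting at 0), by genotype label; points are libraries (circle, square and triangle for replicates 1, 2 and 3) and bars the mean ± SD (n = 3 per group). All 3 libraries labelled Runx1 KO lie above all WT libraries in each panel, from 0.987 against 0.860 for Psmb8/Psmb5 to 1.55 against 1.27 for Psmb10/Psmb7 at the closest points.

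Psmb9, Tap1, Psmb8 and Tap2 are neighbours within 34335 bases of chromosome 17, in that order. Their log2 changes were 0.41, 0.71, 0.22 and 0.17. The pair that starts from the shared promoter printed above was called, and the next genes along, Psmb8 and Tap2, were not; the difference between the pairs was not tested. In GENCODE release M21 the 5′ ends of Psmb9 and Tap1 overlap by 212 bases on opposite strands, so reads there cannot be told apart without strand.

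**Figure D3:**
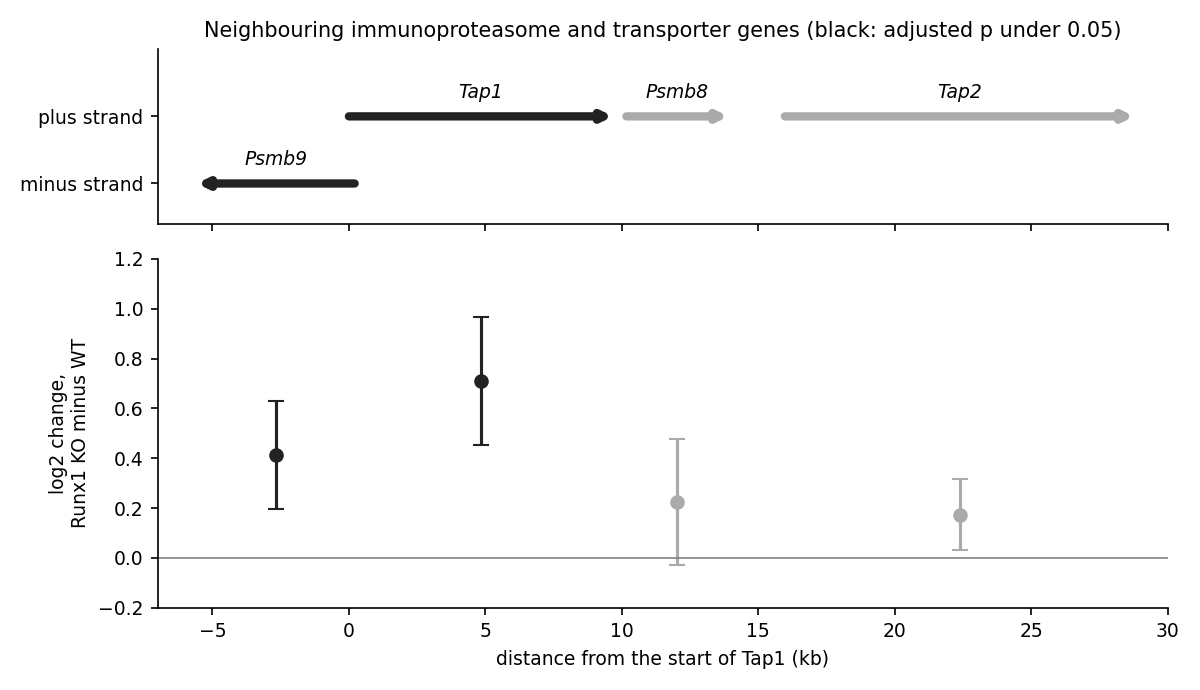
Neighbouring genes of the class II region that encode immunoproteasome and transporter subunits, drawn to scale by distance from the start of Tap1 in kilobases (upper panel, arrows point along transcription), with the log2 change from WT to the libraries labelled Runx1 KO and its 95% limma interval (lower panel, n = 3 per group). Psmb9 and Tap1 (black) passed the threshold with log2 changes of 0.41 and 0.71, and Psmb8 and Tap2 (grey) lay at 0.22 and 0.17.

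Levels of the members were compared per kilobase of principal transcript. In WT the order was B2m (21244 normalised reads per kilobase), H2-K1 (11730), H2-D1 (10426), Psmb10 (1761), Psmb9 (1626), Tapbp (1558), Tap1 (1554), Psmb8 (1374), Tap2 (683) and Nlrc5 (190). Psmb10 and Psmb9, Psmb9 and Tapbp, and Tapbp and Tap1 overlapped between libraries, so their order is not resolved. In the libraries labelled Runx1 KO, Tap1 followed H2-D1 (2556), ahead of Psmb10 (2279) and Psmb9 (2174), although these neighbours overlapped, and Nlrc5 was still last (528). The heavy and light chains thus formed the upper end of the pathway in both groups, and the transactivator the lower end.

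The library labelled Runx1 KO replicate 3 was the lowest of its label in 10 of 10 members, whereas it was the lowest for 35.5% of tested genes. Replicates 1 and 2 of that label were the highest in 5 members each. Among the WT libraries, replicate 2 was the highest in 7 members. The neutrophil and B-lymphoid sums of the library labelled Runx1 KO replicate 3 (27692 and 954) were the lowest of its label as well, next to 31704 and 1038 in replicate 2. So were its stem and progenitor sum (25702, against 27753 and 29747 in replicates 1 and 2) and its megakaryocyte sum (2573, against 4363 and 3883). The same held for T and NK genes and for basophil and mast cell genes. Monocyte and macrophage, dendritic and erythroid sums were lowest in replicate 2 of that label. The part of these cells in the levels of the members was not tested.

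Other class I and class I-like genes were read from a fixed list of 20, of which 16 were listed and tested. Of these, 8 were higher in the libraries labelled Runx1 KO, 1 was lower and 7 did not pass, with a median log2 change of 0.53. Among all tested genes 10.6% were higher and 11.3% lower. H2-Q7, a nonclassical heavy chain, measured 1821, 2338 and 1971 normalised reads in WT and 5934, 6630 and 5083 in the libraries labelled Runx1 KO, a ratio of 2.88 (log2 change 1.52, SE 0.12, limma adjusted p = 0.00114). H2-Q6 measured 3652, 3425 and 3092 against 8285, 9168 and 7224 (log2 change 1.28, SE 0.10, limma adjusted p = 0.00107). H2-Q4 rose by a log2 change of 0.94 (limma adjusted p = 0.00235). These nonclassical genes were fully apart between the groups, and their calls held without any 1 library. They share much sequence: 40.2% of the 50-base stretches of H2-Q7, 32.0% of H2-Q6 and 24.3% of H2-Q4 were found in other genes, so how reads were divided among them is uncertain.

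The remaining 5 genes of that list called higher are named because they complete the count: H2-T10 (log2 change 0.82), H2-T22 (0.66), H2-T23 (0.55), H2-M3 (0.51), which presents formylated peptides, and Mr1 (0.46), which presents vitamin B2 metabolites to MAIT cells. Their limma adjusted p-values were 0.0104, 0.0115, 0.0188, 0.0498 and 0.0397, in that order. H2-M3 thus passed narrowly, and it missed the threshold in edgeR with TMM (adjusted p = 0.0508). The call of H2-T23 was lost without WT replicate 2 or the library labelled Runx1 KO replicate 2 (adjusted p = 0.0549 and 0.0733), that of H2-M3 without any library but Runx1 KO replicate 3 (0.0738 to 0.139), and that of Mr1 without any but WT replicate 1 (0.0742 to 0.113). Sequence is shared here too: 42.9% of the 50-base stretches of H2-T10, 44.7% of H2-T22 and 28.8% of H2-T23 were found in other genes, so the division of reads among them is uncertain as well. Hfe, a class I-like regulator of iron uptake, was lower, at 1249, 1204 and 1546 normalised reads in WT and 730, 609 and 597 in the libraries labelled Runx1 KO (log2 change -1.04, SE 0.12, limma adjusted p = 0.00326). Erythroid marker sums, from 9368 to 16488 in WT and from 1980 to 3863 in the libraries labelled Runx1 KO, were lower as well, and their part in its change was not tested.

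**Figure D4:**
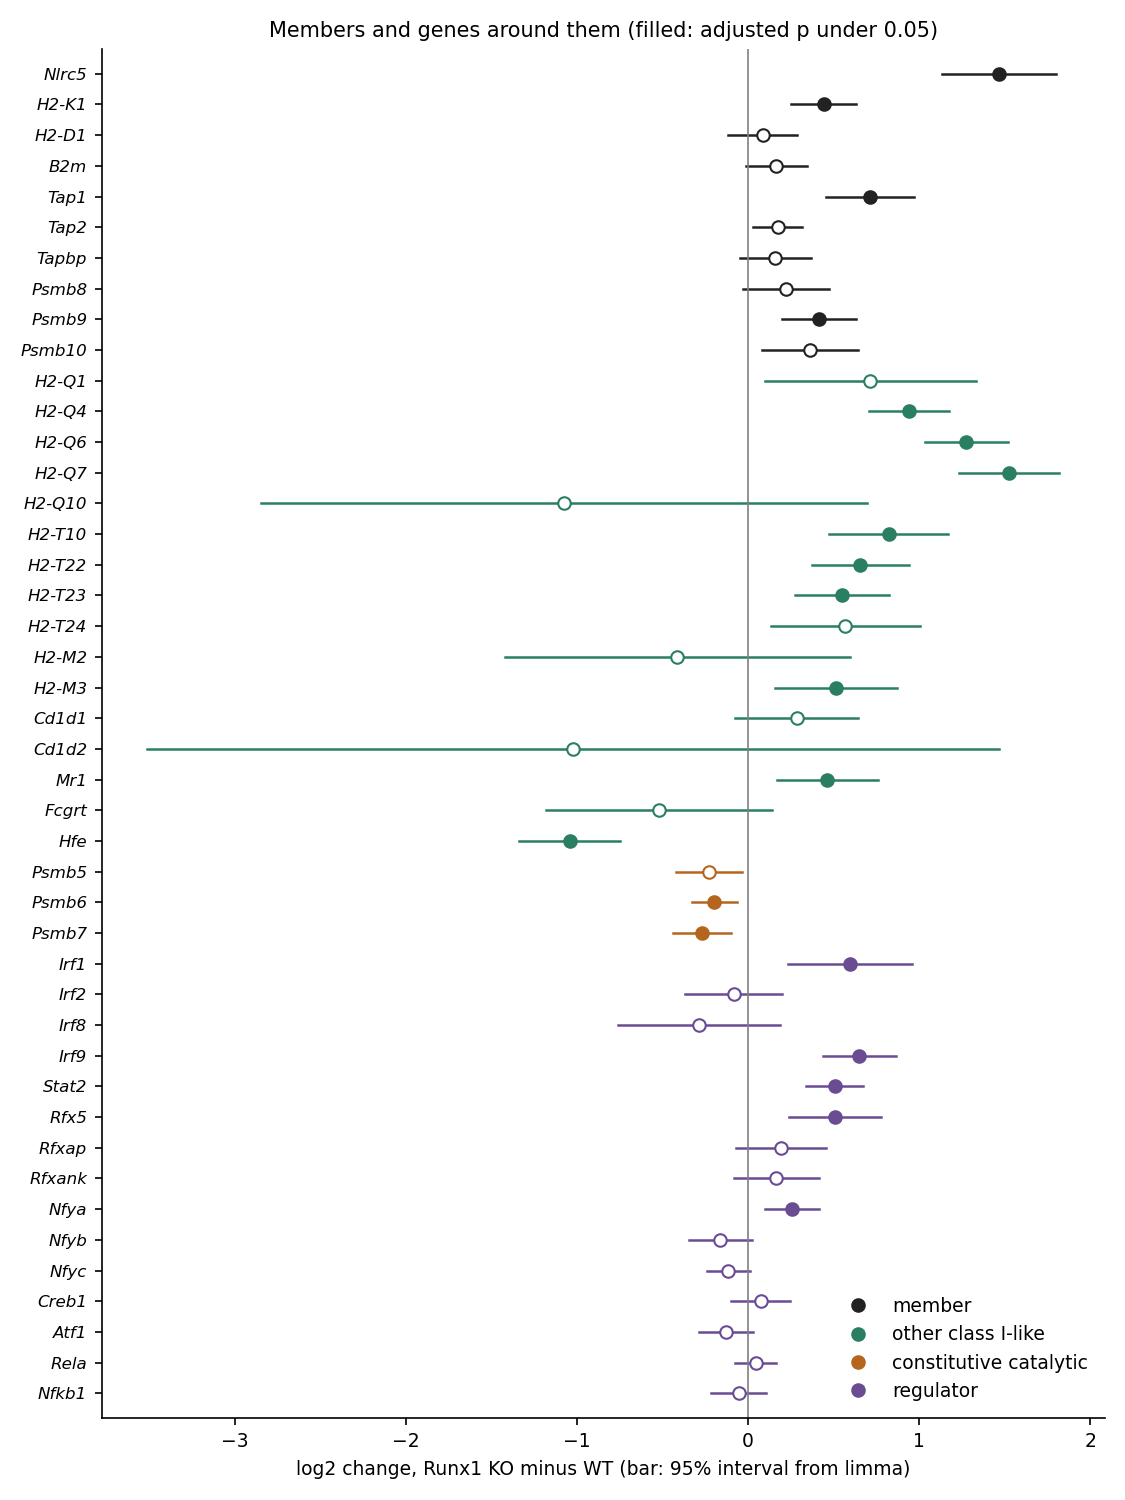
Log2 change from WT to the libraries labelled Runx1 KO (horizontal axis, limma, n = 3 per group) with its 95% interval, for the 10 members, other class I and class I-like genes, constitutive catalytic subunits and most of the class I regulators; filled points have an adjusted p under 0.05, and Irf4, at -4.59, is left out because it would set the axis. Filled points among members lie above 0, from 0.41 for Psmb9 to 1.47 for Nlrc5, while Psmb6 and Psmb7 lie at -0.20 and -0.27.

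Of 8 chaperones and trimming enzymes of peptide loading, 1 was higher and 0 lower, with a median log2 change of -0.05. The shares of all tested genes, 10.6% higher and 11.3% lower, stand beside each count in this paragraph. Erap1, the aminopeptidase that trims peptides in the endoplasmic reticulum, measured 5497, 5917 and 5419 normalised reads in WT and 7638, 8719 and 6880 in the libraries labelled Runx1 KO (log2 change 0.46, SE 0.09, limma adjusted p = 0.0153). The groups were apart, and the call was lost without WT replicate 3 (adjusted p = 0.0509). Among 11 noncatalytic genes of the 20S core 0 were higher and 2 lower, Psmb3 (log2 change -0.27, limma adjusted p = 0.0194) and Psma7 (-0.20, adjusted p = 0.0452), with a median of -0.17. These 2 calls in 11 genes lie near the 21.9% of all tested genes called in either direction. Both calls ended with scaling by library totals (adjusted p = 0.0694 and 0.204). That of Psma7 ended in other settings too, among them the replicate block (limma adjusted p = 0.0638) and edgeR with TMM (adjusted p = 0.053). The call of Psmb3 was also lost without WT replicate 2 or the libraries labelled Runx1 KO replicate 2 or 3 (0.0516 to 0.0799). That of Psma7 was lost without any but Runx1 KO replicate 1 (0.0558 to 0.169). Of 9 proteasome activator and assembly genes 0 passed. The interferon-induced activator subunits Psme1 and Psme2 had log2 changes of 0.18 (95% interval -0.01 to 0.38) and -0.01 (-0.22 to 0.19). Of 7 cytosolic peptidases, Npepps, a cytosolic aminopeptidase, was lower, at 3257, 3533 and 3238 against 2329, 2566 and 2505 (log2 change -0.44, SE 0.07, limma adjusted p = 0.00593), and Lnpep, which trims peptides in endosomes, was higher (0.29, adjusted p = 0.0265), a call lost without replicate 2 or 3 of either label (0.067 to 0.107).

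Factors that act on class I promoters gave 6 higher and 1 lower of 17, with a median log2 change of 0.07. The shares over all tested genes were 10.6% higher and 11.3% lower. Irf9, a DNA-binding factor of the type I interferon response, measured 1633, 1375 and 1304 normalised reads in WT and 2218, 2207 and 2319 in the libraries labelled Runx1 KO, with no overlap (log2 change 0.65, SE 0.09, limma adjusted p = 0.0049). Irf1, an interferon-induced activator, rose by 0.60 (limma adjusted p = 0.0342), although this call was lost without WT replicate 2 or 3 or the libraries labelled Runx1 KO replicate 1 or 2 (adjusted p = 0.0704 to 0.119). Also higher, and named after their values were seen, were Stat2 (log2 change 0.51), Rfx5 (0.51), the DNA-binding subunit of RFX, with which NLRC5 works, and Nfya (0.26) of NF-Y. The call of Rfx5 was lost without the libraries labelled Runx1 KO replicate 2 or 3 (adjusted p = 0.0702 and 0.0522), and that of Nfya without replicate 1 or 2 of WT or 2 or 3 of Runx1 KO (0.0808 to 0.127). The remaining RFX subunits Rfxap and Rfxank had log2 changes of 0.19 and 0.17 (limma adjusted p = 0.249 and 0.296). Neither NF-kappaB gene listed passed (Rela 0.04, Nfkb1 -0.06). Irf4, a factor of lymphoid cells, was lower, at 5487, 703 and 1213 against 174, 34.7 and 52.7 (log2 change -4.59, limma adjusted p = 0.0117), and in both groups it was highest in the library with the highest B-lymphoid sum; the part of B cells in its change was not tested.

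Of 17 interferon ligand, receptor and signalling genes 13 were listed and 12 tested, with 5 higher, 1 lower and a median log2 change of 0.20. Here too, 10.6% of all tested genes were higher and 11.3% lower. Usp18, an interferon-induced brake on the type I receptor, measured 144, 116 and 116 normalised reads in WT and 286, 286 and 239 in the libraries labelled Runx1 KO (log2 change 1.10, SE 0.15, limma adjusted p = 0.00429). Il10rb and Ifnar1, receptor chains for interferon lambda and type I interferon, rose by 0.45 and 0.44 (adjusted p = 0.00843 and 0.00967). Ifngr1 (0.27) and Jak2 (0.22) were higher as well, the former not without WT replicate 1 or the library labelled Runx1 KO replicate 2 (adjusted p = 0.0532 and 0.0833), the latter not without any library but WT replicate 1 (0.0528 to 0.117). Ifnlr1 was lower (log2 change -2.11, limma adjusted p = 0.0274), a call lost without any library but Runx1 KO replicate 1 (0.0516 to 0.0941). The ligand Ifng was low in every library, at 47.5, 17.2 and 13.4 in WT and 17.8, 1.98 and 0.995 in the libraries labelled Runx1 KO, where the last 2 values lie under the floor of 3 reads; this floor covers counting error only. Its groups overlapped (limma adjusted p = 0.108).

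MHC class II genes, which load peptides from endosomes and are driven by Ciita, the class II counterpart of Nlrc5, were read for contrast. Of 10 genes 0 were higher and 1 lower, where 10.6% of all tested genes were higher and 11.3% lower. Ciita measured 651, 678 and 673 normalised reads in WT and 795, 819 and 617 in the libraries labelled Runx1 KO, which overlapped (log2 change 0.14, 95% interval -0.13 to 0.42, limma adjusted p = 0.413). H2-Aa had a log2 change of -0.10 (95% interval -0.37 to 0.17). Cd74 lay at -0.34 (95% interval -0.62 to -0.06, limma adjusted p = 0.0799), and the replicate block called it lower (limma adjusted p = 0.0264). H2-DMb2, a chaperone of class II loading, was lower (log2 change -1.57, limma adjusted p = 0.0227), a call lost without replicate 1 or 3 of WT or 2 or 3 of Runx1 KO (0.0551 to 0.085). Across all 93 tested genes of these lists 30 were called, 21 higher and 9 lower, beside the background of 21.9%.

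The tested genes nearest to Nlrc5 were ranked by the root mean square difference of log2 values centred on each gene's mean, over the 6 libraries. They were Irgm1 (0.0759), H2-Q7 (0.0892), Gbp7 (0.101), Itga9 (0.115) and Gpc3 (0.130). Irgm1 and Gbp7 encode interferon-induced GTPases, and their log2 changes were 1.47 and 1.28. Irgm1 measured 1246, 1459 and 1230 normalised reads in WT and 3203, 4430 and 3378 in the libraries labelled Runx1 KO, with replicate 2 the highest in each group, as for Nlrc5. Nearest to the mean of the 10 members were Mier2 (0.0526), Erap1 (0.0528), Pld6 (0.0537), Nab2 (0.0544) and Rnf135 (0.0546). Erap1, which trims the peptides that TAP delivers, was the one gene of the peptide loading list among them. The ranking describes 6 libraries and largely follows the difference between the groups.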

How the data were processed

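RNA of c-Kit-selected mouse bone marrow cells was sequenced in 6 libraries, 3 of genotype WT and 3 labelled Runx1 KO, as strand-specific poly-A libraries pooled on a HiSeq2500, per the labels' protocols. HISAT2, HTSeq 0.9.1 and the builds mm10 and GRCm38 are named, with no role, per the submitters' processing notes. The deposited values are a signal, read as size-factor-normalised counts: in every library all values were whole multiples of the smallest one (tolerance 0.001). Whole reads were recovered from those steps, between 23297526 and 26793380 per library, so that a floor of 3 reads equals 2.88 to 3.14 normalised reads. The floor covers counting error only, as PCR copies cannot be recognised here.

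Genes were kept by filterByExpr (minimum count 10, minimum total 15), which left 15410 of 20097. Limma 3.58.1 in R 4.3.3 (lmFit, eBayes with trend, two-sided) was fitted to log2(normalised read count + 1) of all 6 libraries by group, with Benjamini-Hochberg adjustment over all genes tested. This scale understates changes of low genes. The recovered reads went into edgeR 4.0.16 and DESeq2 1.42.0 as alternatives, beside other pseudocounts (0.5 and 5), filters (none, or a mean CPM of at least 1), TMM or library totals as scaling, a replicate block and leaving out libraries; the fits were tested on simulated data. Symbols matched 20077 identifiers, and coordinates are from GENCODE release M21 on GRCm38. Levels per kilobase use the length of the principal transcript. Promoter windows are those of RefSeq on GRCm38.p6.

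The members and gene lists were chosen with earlier results of these data known. Named genes are the members, up to 4 called genes with the largest change in each list, Psmb5, Psmb6 and Psmb7, Runx1 and the 5 nearest genes by root mean square difference; others were named after their values were seen. A gene of the regulator list is counted there but not reported here.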

Additional observations from a re-analysis of the deposited data

How the results depend on the processing

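All 10 members kept a positive log2 change in the 11 alternatives that keep all libraries and when any 1 library was left out. Of 110 member results in those 11 alternatives, 106 had the same call as reported and 4 gained one: B2m, Tap2 and Psmb10 with library totals and Psmb10 with DESeq2. Members called, all of them higher, numbered 7 with library totals, where the median of all genes shifted to 0.08 on the log2 scale, 5 with DESeq2, 4 in the other alternatives that keep all libraries, and between 2 and 5 when any 1 library was left out, with 0 lower throughout. Leaving out both libraries numbered 1, chosen after the data were seen, gave 3. Other pathway genes called, 30 as reported, ranged from 27 to 38 with all libraries and from 15 to 28 without 1 library. Of 341 results for these 30 genes and Psmb5 in the 11 alternatives, 324 had the same call as reported and 17 lost it. Those higher, 21 as reported, ranged from 12 to 20 without 1 library. Those lower, 9 as reported, numbered 5 with library totals and 15 with DESeq2, from 3 to 11 without 1 library, and 16 without both libraries numbered 1 (35 called in all); the cause was not tested.

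Same-numbered libraries did not deviate together in every pair (correlations 0.287, 0.129 and -0.01), and WT replicate 2 correlated best with the library labelled Runx1 KO replicate 3 (0.235), so the numbers were not taken to pair the libraries. With the replicate block the members called stayed at 4, and other pathway genes called were 35 (23 higher, 12 lower). Depth did not limit the members, whose lowest value was 1285 normalised reads.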
